A study of Danio rerio with 12 samples.

Results

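The transcripts described here encode the core of the Hippo pathway in the zebrafish heart: the co-activators Yap (yap1) and Taz (wwtr1), 4 of their Tead DNA-binding partners (tead1a, tead1b, tead3a and tead3b), the kinases Stk3, Lats1 and Lats2, and the scaffold angiomotin (amot). These 10 genes were found by symbol among the 24782 genes of the deposited table, which gives their NCBI gene numbers as 561411 (yap1), 568008 (wwtr1), 405773 (tead1a), 100006454 (tead1b), 386763 (tead3a), 794293 (tead3b), 324125 (stk3), 553164 (lats1), 567674 (lats2) and 563421 (amot). Of the 10, 8 passed a filter of a mean of 1 FPKM (fragments divided by transcript length and by the library's mapped fragments) over the 12 libraries, as 13969 genes did in all, and tead1a and tead1b did not. The row with the symbol taz encodes tafazzin, an enzyme of mitochondrial membranes, and was not used.

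RNA-seq was performed on whole hearts of zebrafish aged 6 to 12 months, taken 7 days after surgery. Wild-type fish (yap +/+) and yap mutants (yap -/-) each received either a sham operation, in which the chest was opened and the heart left alone, or a cryoinjury, in which a probe chilled in liquid nitrogen was held to the ventricle. Each of the 4 groups had 3 libraries. The labels do not name the yap allele, and they do not say how many hearts went into a library or whether libraries came from separate fish, so p-values measure only the spread between these libraries. Nothing in the labels limits the mutation to a cell type.

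In the Hippo pathway, as worked out mainly in flies and mammals, Stk3 and its relatives activate the Lats kinases, which phosphorylate Yap and Taz and thereby keep them out of the nucleus or mark them for destruction. Unphosphorylated Yap and Taz enter the nucleus and switch on genes through Tead factors, since they cannot bind DNA themselves. In the heart the pathway is known for limiting cardiomyocyte proliferation in mammals, while the zebrafish ventricle replaces muscle lost to cryoinjury. The pathway acts largely through phosphorylation and protein location, which transcript levels do not measure.

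The libraries were heart: the 10 cardiomyocyte markers summed to 42989 to 87694 FPKM. No marker of the muscle, vessel, epicardial, matrix or blood cell lists was at 0 in all libraries. The same held for a skin epithelium list, so this cannot tell heart from other tissue. Read counts were not used here, so absolute depth is unknown. If low values are whole multiples of a step per gene, the steps put the columns at 0.812 to 1.39 times the depth of wild-type sham 1. Several libraries stood apart from the rest of their group. The share of all FPKM taken by ribosomal protein genes was 39.5% for mutant sham 1 and 32.4% for mutant cryoinjury 2, while the other 10 libraries had 13.5% to 20.7%. Mutant sham 1 also had the most genes listed at 0 (5138) and lay farthest out on the first principal component, with mutant sham 2 at its opposite end. Transcripts of the red blood cell list took 16.0% of wild-type sham 3. In wild type the median gene of the table was 0.19 higher on the log2 scale after cryoinjury as deposited, and -0.01 after median-of-ratios rescaling, so the injury differences of the tested members over both genotypes are also given below after that rescaling.

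Averaged over the 12 libraries, yap1 was the most abundant of the 10 transcripts per length at 19.4 FPKM, followed by wwtr1 at 14.8, stk3 at 10.0, tead3a at 7.11, lats2 at 3.96, tead3b at 2.59, amot at 2.52, lats1 at 1.76, tead1b at 0.665 and tead1a at 0.655. Most neighbours in this order could not be separated by their ranges over libraries, and the only adjacent pair whose ranges did not overlap was lats1 and tead1b. Within single libraries the order was steadier: wwtr1 exceeded stk3, tead3a exceeded lats2 and lats2 exceeded tead3b in 12 of 12 libraries. The order of tead3b and amot was even, with tead3b the higher in 6 of 12, as was that of tead1b and tead1a. The pooled order of the co-activators did not hold in mutants, where the mean was 14.0 FPKM for wwtr1 and 12.9 FPKM for yap1, and yap1 was the higher in 2 of 6 libraries.

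**Figure D1:**
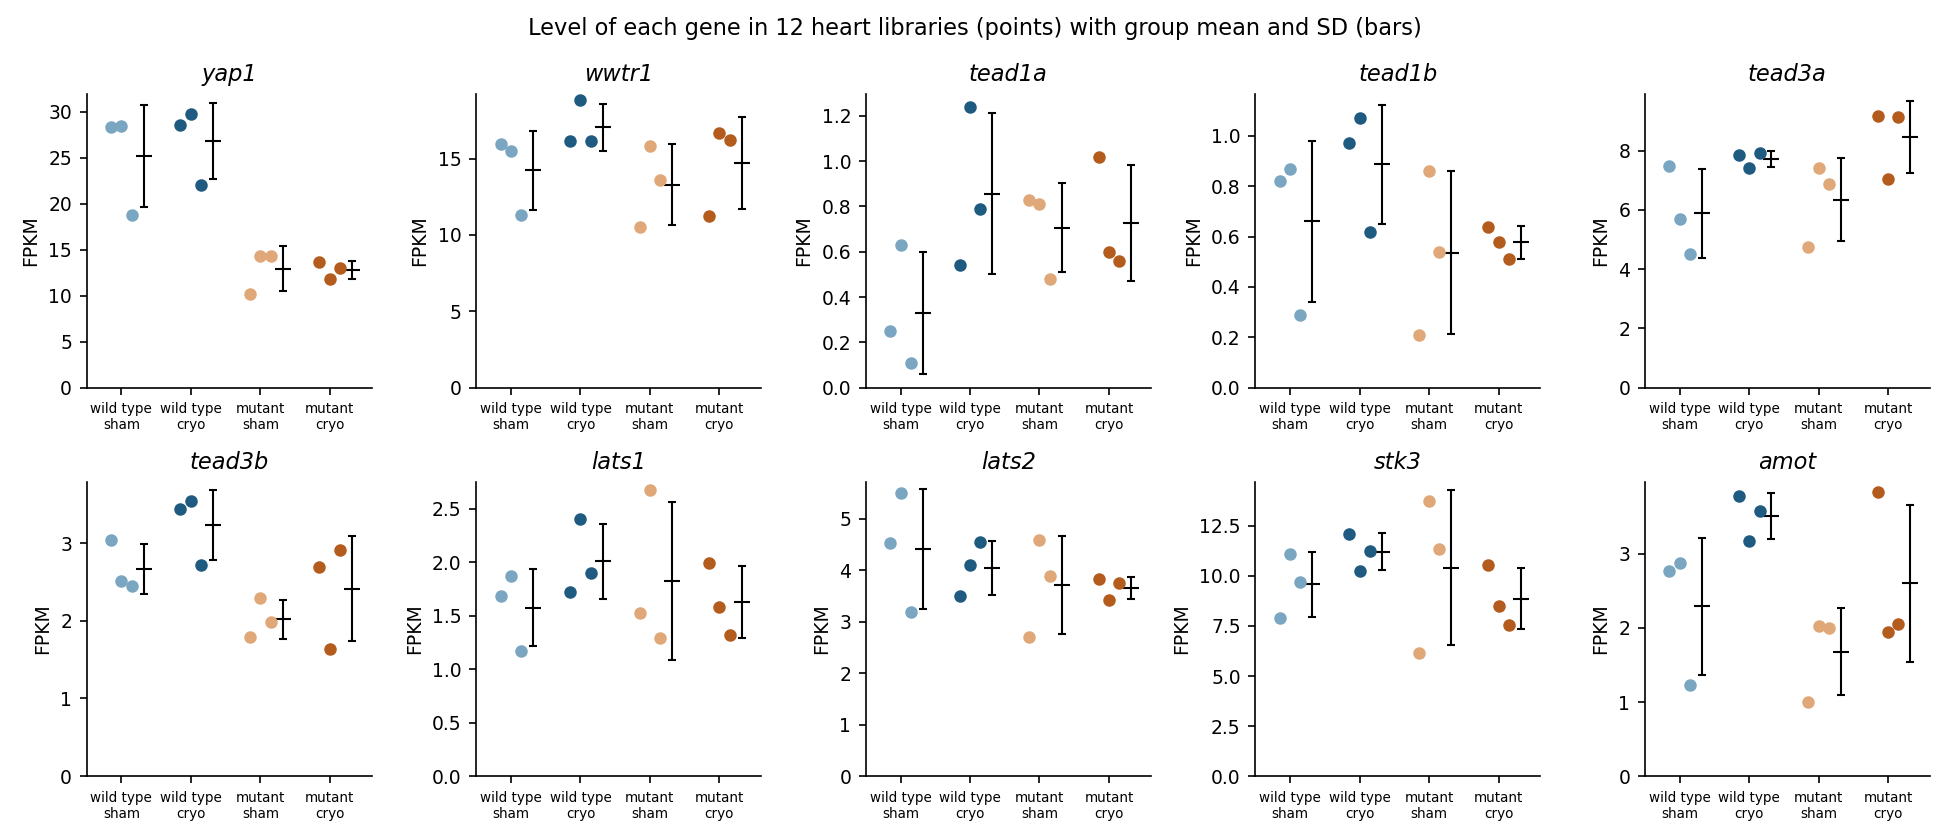
FPKM of each of the 10 genes in every library, 1 panel per gene on a linear axis from 0, by group (wild-type and mutant, sham and cryoinjury; 3 libraries each), with points for libraries and bars for the group mean and SD. The yap1 points of the mutants, at 10.1 to 14.4 FPKM, lie below all wild-type points, at 18.8 to 29.8 FPKM, while the genotypes overlap in the other 9 genes when both injury states are pooled.

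The transcript of yap1 itself, the gene named by the genotype, was present in the mutants at a lower level. Its values were 28.4, 28.4 and 18.8 FPKM in wild-type sham hearts and 28.5, 29.8 and 22.1 FPKM in wild-type cryoinjured hearts. In mutants they were 10.1, 14.3 and 14.4 FPKM after sham surgery and 13.7, 11.8 and 13.1 FPKM after cryoinjury. Every mutant library was below every wild-type library, and the lowest wild-type value came from the library with the largest red blood cell share.

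The mean of yap1 was 26.0 ± 4.48 FPKM (SD, n = 6) in wild type and 12.9 ± 1.65 FPKM (SD, n = 6) in mutants. The log2 difference was -0.95 ± 0.16 (SE), with a 95% interval of -1.29 to -0.61, and it was the sixth smallest p among the 13969 genes tested by limma. Its Benjamini-Hochberg adjusted p over all genes was 0.146, which did not pass 0.05. Exchanging the genotype labels within each injury state in all 400 ways (exact permutation test, two-sided) gave p = 0.005, the smallest that the design allows. Libraries separated 6 against 6 in this direction for 0.43% of genes tested, and yap1 was the only one of the 8 tested members that did so.

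The yap1 difference had the same direction in both injury states, with overlapping intervals. It was -0.90 (95% interval -1.39 to -0.42) in sham hearts, and in cryoinjured hearts its 95% interval was -1.48 to -0.51. The difference between the injury responses of the genotypes was -0.10 (95% interval -0.78 to 0.59), and it was 0.10 after median-of-ratios rescaling. Injury itself gave 0.10 in wild type, with an interval of -0.39 to 0.58, and 0.00 in mutants, with an interval of -0.48 to 0.49. Both intervals span 0, and after median-of-ratios rescaling the values were -0.14 and -0.04. Over both genotypes the injury difference was 0.05 as deposited and -0.09 after rescaling, so its sign turned.

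Summed markers of some cell types, though not of all, differed between the genotypes in the same libraries. The 10 summed cardiomyocyte markers ran from 73956 to 87694 FPKM in wild-type sham hearts and from 48200 to 64103 in mutant sham hearts, with no overlap. After cryoinjury they ran from 55239 to 70994 in wild type and from 42989 to 70054 in mutants, with overlap. The single markers were not alike. In sham hearts myl7 and actc1a were separate toward lower mutant levels, while cmlc1 overlapped. The marker tnnt2a also overlapped, at 8720 to 9411 FPKM in wild-type sham hearts and 8461 to 11043 in mutant sham hearts. The yap1 levels did not overlap in either state, and non-overlap toward lower levels was seen for 12.6% of all genes in cryoinjured hearts. The 5 summed smooth muscle markers ran from 1005 to 1888 FPKM in wild-type cryoinjured hearts and from 395 to 859 in mutant cryoinjured hearts. In sham hearts these sums overlapped, at 560 to 683 FPKM in wild type and 301 to 567 in mutants. Of the single markers in sham hearts, acta2 was separate, at 274 to 374 FPKM in wild type and 146 to 214 in mutants. The sham levels of tagln, cnn1b and myh11a overlapped. After cryoinjury much of the sum was tagln, at 745 to 1435 FPKM in wild-type and 230 to 597 in mutant cryoinjured hearts. There cnn1b was also separate toward lower mutant levels, while acta2 overlapped. So did myh11a, at 5.43 to 8.08 FPKM in wild type and 6.93 to 18.3 in mutants. In sham hearts the 7 summed fast skeletal muscle markers ran from 2670 to 4070 FPKM in wild type and 399 to 1711 in mutants. These ranges were separate, and those after cryoinjury overlapped. Among them acta1b and ckma were separate in sham hearts, while mylpfa and pvalb2 overlapped. The 6 summed endothelial markers overlapped in both states, at 103 to 163 FPKM in wild-type and 96.7 to 160 in mutant sham hearts. The part of these markers in the yap1 difference was not tested. In whole hearts fewer cells of a type and less RNA per cell cannot be told apart. With mutant sham 1, mutant sham 2 and mutant cryoinjury 2 left out, a setting chosen after seeing the data, the yap1 difference was -0.84. This leaves 40 arrangements, and the exact permutation p of 0.025 is the smallest they can give.

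The paralog wwtr1 did not differ detectably between the genotypes. Its values were 16.0, 15.5 and 11.3 FPKM in wild-type sham hearts and 16.2, 18.8 and 16.1 FPKM in wild-type cryoinjured hearts. Mutant libraries had 10.5, 15.8 and 13.6 FPKM after sham surgery and 11.2, 16.7 and 16.2 FPKM after cryoinjury. The genotypes overlapped, and the log2 difference was -0.16 (95% interval -0.50 to 0.19, exact permutation p = 0.28), an interval that leaves room for a decrease or a smaller increase.

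In wild type, all 3 cryoinjured libraries had more wwtr1 than all 3 sham libraries, by 0.26 on the log2 scale (95% interval -0.23 to 0.74, limma adjusted p = 0.722). Such a separation was common, at 24.3% of all genes tested in this comparison, and after median-of-ratios rescaling the wild-type difference was 0.02 and the groups overlapped. In mutants the injury difference of wwtr1 was 0.13 (95% interval -0.35 to 0.62). Over both genotypes it was 0.20 as deposited and 0.06 after rescaling.

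The balance of the co-activators differed between the genotypes. The ratio of yap1 to wwtr1, which does not depend on how a library was scaled, was 1.78, 1.84 and 1.67 in wild-type sham hearts and 1.76, 1.58 and 1.37 in wild-type cryoinjured hearts. It was 0.966, 0.906 and 1.06 in mutant sham hearts and 1.22, 0.705 and 0.806 in mutant cryoinjured hearts. Yap1 exceeded wwtr1 in 6 of 6 wild-type libraries and in 2 of 6 mutant libraries. The means were 1.67 ± 0.172 in wild type and 0.943 ± 0.182 in mutants (SD, n = 6), with no overlap between genotypes in either injury state. As yap1 stands in the ratio, this is a description and adds no independent evidence.

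Among these 4 Tead genes, tead3a was the most abundant, tead3b was next, and tead1a and tead1b were the least abundant. No row was matched to tead2, so its level is unknown and the Tead sums below leave it out. The values of tead3a were 7.49, 5.68 and 4.50 FPKM in wild-type sham hearts and 7.85, 7.41 and 7.92 FPKM in wild-type cryoinjured hearts. The mutant values were 4.75, 7.41 and 6.88 FPKM after sham surgery and 9.17, 7.06 and 9.14 FPKM after cryoinjury. Cryoinjured hearts had the higher means in both genotypes, with overlapping ranges in each. After median-of-ratios rescaling the mutant ranges separated, at 7.46 to 8.99 FPKM after cryoinjury and 5.97 to 6.86 FPKM after sham surgery, as for 3.02% of all genes on that scale. Mutant cryoinjured hearts then also lay above the 6.70 to 7.12 FPKM of wild-type cryoinjured hearts, as for 6.59% of all genes, while the wild-type groups overlapped.

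For tead3a the injury difference over both genotypes was 0.37 ± 0.15 (SE) on the log2 scale, with a 95% interval of 0.03 to 0.70 and a limma adjusted p of 0.468. Its unadjusted p of 0.0336 was among the 9.70% of genes below 0.05 in this comparison. The injury difference was 0.36 in wild type and 0.38 in mutants. The difference between those responses was 0.01 (95% interval -0.66 to 0.68). After median-of-ratios rescaling it was 0.24 over both genotypes, 0.15 in wild type and 0.34 in mutants. In the same libraries the 9 summed matrix and fibroblast markers ran from 111 to 293 FPKM in wild-type sham hearts and from 469 to 1127 after cryoinjury. In mutants they overlapped, at 66.2 to 1037 FPKM after sham surgery and 514 to 703 after cryoinjury. Their part in the tead3a difference was not tested. By genotype, tead3a differed by 0.10 (95% interval -0.23 to 0.44).

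The paralog tead3b had less transcript in every mutant sham library than in any wild-type sham library. Its values were 3.04, 2.51 and 2.45 FPKM in wild-type sham hearts against 1.79, 2.29 and 1.99 FPKM in mutant sham hearts. After cryoinjury they were 3.44, 3.55 and 2.72 FPKM in wild type and 2.70, 1.64 and 2.91 FPKM in mutants. The sham groups did not overlap, also after median-of-ratios rescaling, and the cryoinjured groups did.

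Non-overlap toward lower levels was seen for 3.18% of all genes in sham hearts, and for 2 of the 8 tested members, yap1 and tead3b. The tead3b difference over both injuries was -0.30 ± 0.14 (SE), with a 95% interval of -0.61 to 0.01 and a limma adjusted p of 0.518, so it did not pass the test. Its injury difference was 0.18 (95% interval -0.13 to 0.49), and 0.07 after median-of-ratios rescaling.

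The ratio of tead3a to tead3b was higher in mutants within each injury state. In sham hearts it was 2.46, 2.26 and 1.84 in wild type and 2.65, 3.24 and 3.46 in mutants. In cryoinjured hearts it was 2.28, 2.09 and 2.91 in wild type and 3.40, 4.30 and 3.14 in mutants. The genotypes did not overlap within either state, and they overlapped when the states were pooled. This ratio repeats the values of tead3a and tead3b given above, adds no independent evidence and was not tested. The share of gene pairs whose ratios separate in this way was not computed. Reads of the paralogs could have been divided between them in ways that the sources used here do not give.

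The values of tead1a were 0.25, 0.63 and 0.11 FPKM in wild-type sham hearts and 0.54, 1.24 and 0.79 FPKM in wild-type cryoinjured hearts. Mutant hearts gave 0.83, 0.81 and 0.48 FPKM after sham surgery and 1.02, 0.60 and 0.56 FPKM after cryoinjury. All groups overlapped, and at these levels a few reads move a value.

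The values of tead1b were 0.82, 0.87 and 0.29 FPKM in wild-type sham hearts and 0.97, 1.07 and 0.62 FPKM in wild-type cryoinjured hearts. For mutants they read 0.21, 0.86 and 0.54 FPKM after sham surgery and 0.64, 0.58 and 0.51 FPKM after cryoinjury. Again every pair of groups overlapped. In a fit without the filter on low values, the genotype difference over both injuries was 0.14 (95% interval -0.16 to 0.44) for tead1a and -0.18 (95% interval -0.48 to 0.12) for tead1b. By injury in wild type, tead1a differed by 0.48 (95% interval 0.06 to 0.91, limma unadjusted p = 0.0297, adjusted p = 0.629), and in mutants by 0.01 (95% interval -0.41 to 0.44). The difference between those responses was -0.47 (95% interval -1.07 to 0.13). The wild-type p of tead1a ranked 1166 among the 24782 genes of that fit, and its difference was fitted on the deposited scale without median-of-ratios rescaling. The log2(FPKM + 1) scale understates changes at such levels.

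Summed over the 4 Tead genes, the level was 7.35 to 11.6 FPKM in wild-type sham hearts and 12.1 to 13.3 FPKM in wild-type cryoinjured hearts, without overlap, a comparison in which 24.3% of all genes separated this way. In mutants it was 7.58 to 11.4 FPKM after sham surgery and 9.88 to 13.5 FPKM after cryoinjury, with overlap. This depended on scaling: after median-of-ratios rescaling the wild-type groups overlapped, at 8.39 to 12.5 and 10.8 to 12.0 FPKM, and the mutant groups separated, at 9.17 to 10.1 and 10.4 to 12.9 FPKM. Set against this sum, yap1 took 4 separate ranges in the 4 groups. There were 2.45 to 2.93 yap1 FPKM per Tead FPKM in wild-type sham hearts, 1.83 to 2.25 in wild-type cryoinjured hearts, 1.26 to 1.45 in mutant sham hearts and 0.995 to 1.19 in mutant cryoinjured hearts. The yap1 ratio was thus lower after cryoinjury than after sham surgery within each genotype, and lower in mutants within each state. With wwtr1 added to yap1, the ratio was 3.82 to 4.53 in wild-type sham hearts and 3.17 to 3.67 in wild-type cryoinjured hearts. The mutant groups then overlapped, at 2.65 to 2.83 after sham surgery and 1.84 to 2.88 after cryoinjury. The share of tead3a in the Tead sum was 55.8% to 71.5%. As yap1 and tead3a were described above, these ratios add no independent evidence and are given without a test.

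**Figure D2:**
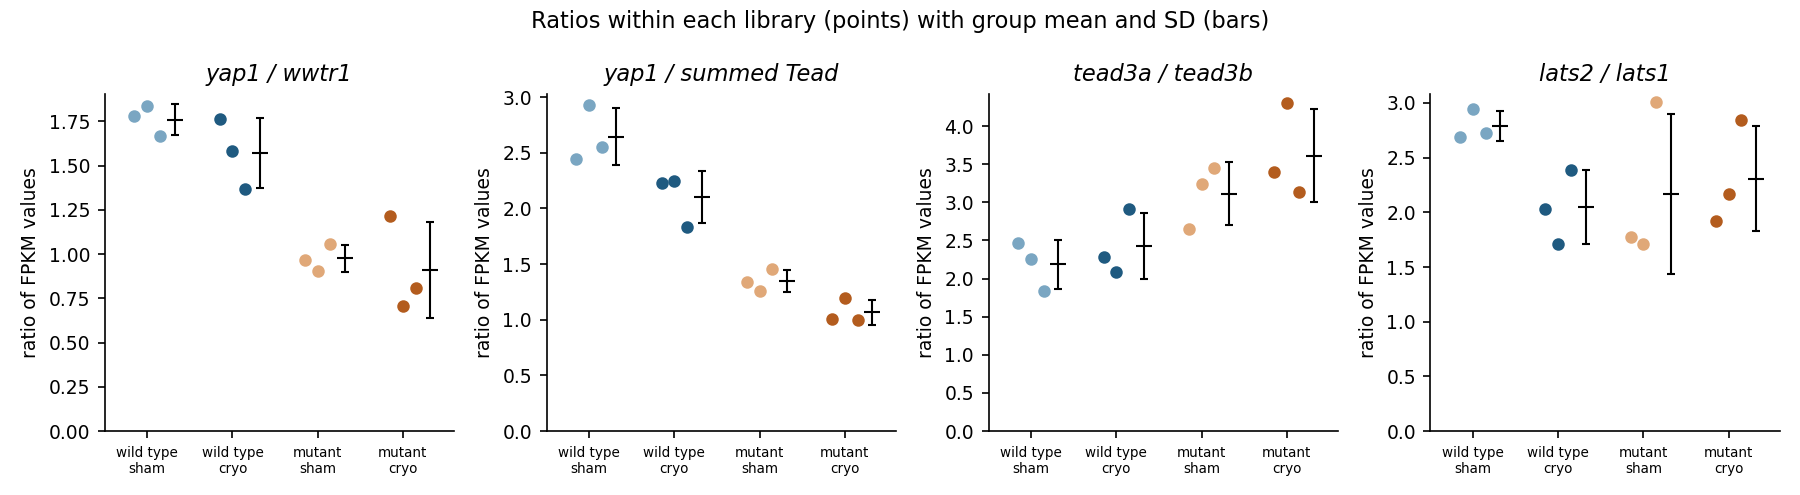
Ratios of FPKM values within each library (yap1 to wwtr1, yap1 to the 4 summed Tead genes, tead3a to tead3b, lats2 to lats1) by group, 3 libraries each, with points for libraries and bars for the group mean and SD. The yap1 to wwtr1 ratio lies at 1.37 to 1.84 in wild type and 0.705 to 1.22 in mutants, and the 4 groups occupy separate ranges in the ratio of yap1 to summed Tead.

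No row was matched to stk4, another listed Hippo kinase. Of the member kinases, stk3, the zebrafish counterpart of mammalian MST2, was the most abundant. Its values were 7.89, 11.1 and 9.72 FPKM in wild-type sham hearts and 12.1, 10.3 and 11.3 FPKM in wild-type cryoinjured hearts. The mutants had 6.17, 13.7 and 11.4 FPKM after sham surgery and 10.5, 8.51 and 7.57 FPKM after cryoinjury. The lowest and the highest values of all 12 libraries both came from mutant sham hearts, the libraries at the opposite ends of the first principal component. The genotype difference was -0.13 (95% interval -0.53 to 0.27) and the injury difference 0.03 (95% interval -0.37 to 0.43), which was -0.10 after median-of-ratios rescaling. The injury responses differed by -0.37 between genotypes (95% interval -1.18 to 0.43).

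The Lats kinases phosphorylate Yap and Taz directly, and lats1 overlapped between every pair of groups. The values of lats1 were 1.68, 1.87 and 1.17 FPKM in wild-type sham hearts and 1.72, 2.40 and 1.90 FPKM in wild-type cryoinjured hearts. Mutant levels were 1.52, 2.67 and 1.29 FPKM after sham surgery and 1.99, 1.58 and 1.32 FPKM after cryoinjury. The genotype difference was -0.04 (95% interval -0.39 to 0.31), and the injury difference was 0.07 (95% interval -0.28 to 0.42), or -0.01 after median-of-ratios rescaling.

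The values of lats2 were 4.52, 5.51 and 3.19 FPKM in wild-type sham hearts and 3.50, 4.11 and 4.54 FPKM in wild-type cryoinjured hearts. In the mutants these were 2.70, 4.58 and 3.88 FPKM after sham surgery and 3.82, 3.42 and 3.75 FPKM after cryoinjury. No group stood apart, and the differences were -0.15 by genotype (95% interval -0.49 to 0.19) and -0.04 by injury (95% interval -0.38 to 0.30), or -0.15 by injury after median-of-ratios rescaling. The ratio of lats2 to lats1 was 2.69 to 2.95 in wild-type sham hearts and 1.71 to 2.39 in wild-type cryoinjured hearts, while in mutants it was 1.72 to 3.01 and 1.92 to 2.84. The ranges were thus separate in wild type and overlapped in mutants, and whether the genotypes differ in this was not tested. How often ratios of gene pairs separate in this way was not computed, so the ratio is a description.

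The scaffold amot, whose protein binds Yap and in mammals can hold it at cell junctions, had the largest injury difference of the 8 tested members, though it did not pass the test. Its values were 2.77, 2.88 and 1.23 FPKM in wild-type sham hearts and 3.78, 3.17 and 3.58 FPKM in wild-type cryoinjured hearts. Values in mutants were 1.00, 2.03 and 2.01 FPKM after sham surgery and 3.83, 1.94 and 2.05 FPKM after cryoinjury. Wild-type groups did not overlap, which with wwtr1 made 2 of 8 members against the 24.3% of all genes given above, and mutant groups did.

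Over both genotypes the injury difference of amot was 0.46 ± 0.20 (SE), with a 95% interval of 0.02 to 0.89 and a limma adjusted p of 0.497. It was 0.49 in wild type and 0.42 in mutants, where 1 library, mutant cryoinjury 1, was well above the others. Without wild-type sham 3, the library at 1.23 FPKM, the wild-type difference was 0.24. After median-of-ratios rescaling the difference over both genotypes was 0.36. The wild-type groups then overlapped, and the mutant groups separated, at 2.02 to 3.62 FPKM after cryoinjury and 1.34 to 2.00 FPKM after sham surgery, as for the 3.02% of genes given above. The summed epicardial markers ran from 70.9 to 128 FPKM in wild-type sham hearts and from 154 to 235 after wild-type cryoinjury. In mutants they overlapped, at 114 to 220 FPKM after sham surgery and 157 to 280 after cryoinjury. Their part in the amot difference was not tested. By genotype the difference was -0.32 (95% interval -0.75 to 0.12). The ratio of amot to yap1 was higher after cryoinjury than after sham surgery in both genotypes, at 0.106 to 0.162 against 0.0656 to 0.101 in wild type and 0.157 to 0.280 against 0.0987 to 0.142 in mutants. The lowest ratio, 0.0656, was that of wild-type sham 3. As both genes were described above, the ratio adds no independent evidence and is given without a test.

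**Figure D3:**
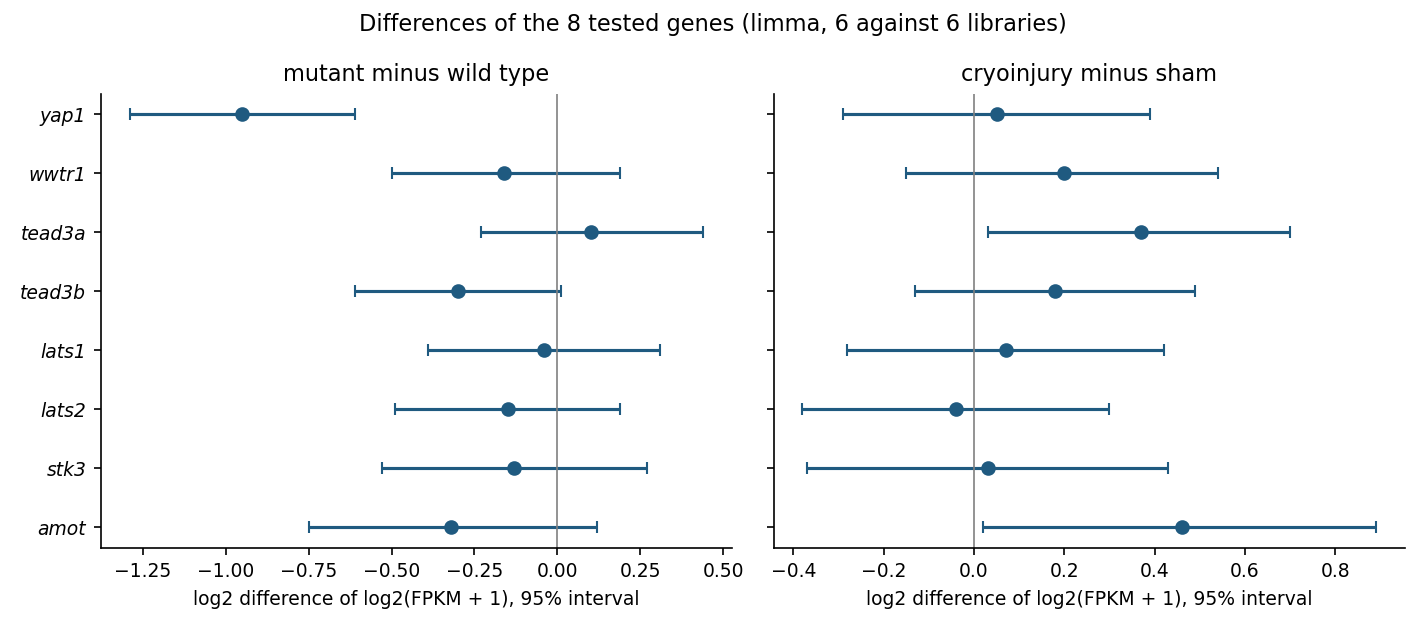
Log2 differences of the 8 tested genes on log2(FPKM + 1), with points for estimates and bars for 95% intervals from limma, for mutant minus wild type (left) and cryoinjury minus sham (right), 6 against 6 libraries in each. The interval of yap1 by genotype, -1.29 to -0.61, and those of tead3a and amot by injury, 0.03 to 0.70 and 0.02 to 0.89, exclude 0 before adjustment over all genes.

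Across the whole table the libraries left few genes past an adjusted p of 0.05, which frames the counts for these 8 tested members. None of the 8 passed in any of the 7 comparisons. Among all genes tested, limma called 1 gene by genotype over both injuries (0.00716%), 9 by injury over both genotypes (0.0644%), and 0 in each of the other 5. At an unadjusted p under 0.05, members counted were yap1 alone in each of the 3 genotype comparisons and tead3a and amot by injury over both genotypes, and no member in the other 3. The share of all genes below that value was 9.66% by genotype over both injuries, 5.99% in sham hearts, 5.03% in cryoinjured hearts and 9.70% by injury over both genotypes.

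In wild type alone it was 8.67% after injury, and in mutants 3.11%, with 1.94% for the difference of the responses. The median log2 difference over the 8 members was -0.15 by genotype, beside -0.03 over all genes, and 0.13 by injury, beside 0.10 over all genes. The members' median is thus close to that of the table by injury.

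The genes whose levels were most like those of yap1 over the 12 libraries were smarcd3b, emilin1a and myl9b. Their Pearson r of log2(FPKM + 1) was 0.914 for smarcd3b, which encodes a subunit of chromatin-remodelling complexes, 0.905 for emilin1a, a glycoprotein of elastic matrix, and 0.896 for myl9b, a regulatory light chain of smooth muscle myosin. Spearman's rho was 0.909, 0.860 and 0.895. After median-of-ratios rescaling the Pearson r was 0.889, 0.893 and 0.880.

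For wwtr1 the leading gene was ogt.1, an O-GlcNAc transferase, at r = 0.946 with a rho of 0.713. For stk3 it was fbxo11a, an F-box protein of ubiquitin ligases, at 0.966, and 0.874 after rescaling. For tead3b it was nudt3a at 0.922, for tead3a ftr02 at 0.908, for amot slco3a1 at 0.902, for lats1 taf2 at 0.887 and for lats2 nras at 0.870. The least abundant members led with cica for tead1b, at 0.921, and tefb for tead1a, at 0.900. These are the best of 6322 or 6323 genes compared per member with a mean of 5 FPKM or more, and all points share their libraries, so the values describe likeness only.

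Of 76 other Hippo pathway genes listed, 68 were found in the table and 54 were tested. None passed an adjusted p of 0.05 in any comparison. By genotype over both injuries, 21 of the 54 were higher and 33 lower in mutants, with a median of -0.06. By injury over both genotypes, 39 were higher and 15 lower after cryoinjury, with a median of 0.15 beside 0.10 over all genes.

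The pathway gene of lowest p by genotype was taok3a, a kinase of the Tao family that activates Stk3 relatives in mammals and flies. It had 3.16, 5.72 and 4.35 FPKM in wild-type sham hearts and 6.02, 6.80 and 5.99 FPKM in wild-type cryoinjured hearts. In mutants it had 5.69, 10.3 and 5.71 FPKM after sham surgery and 13.3, 11.0 and 9.34 FPKM after cryoinjury. Mutant cryoinjured libraries were all above wild-type cryoinjured libraries, as for 3.06% of genes tested, and the log2 difference by genotype was 0.66 ± 0.18 (SE, limma adjusted p = 0.313). By injury it was 0.53 ± 0.18 (SE, limma adjusted p = 0.359).

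Other pathway genes of lowest p by genotype were scrib, a polarity scaffold, at -0.46 ± 0.17 (SE), and ywhag1, a 14-3-3 protein of the family that anchors phosphorylated Yap, at -0.58 ± 0.24 (SE). They were followed by taok2b at -0.32, limd1a, of the LIM proteins that restrain Lats kinases, at -0.37, and amotl2b, an angiomotin relative, at 0.50. The other tested angiomotin relative, amotl2a, named here after its value was seen, was also higher in mutants, at 0.55, whereas amot was at -0.32. None of these passed after adjustment. For scrib, ywhag1, taok2b, limd1a and amotl2b the limma adjusted p lay between 0.438 for scrib and 0.551 for amotl2b, and for amot it was 0.588.

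By injury the lowest p was that of map4k2, a kinase that can act beside Stk3 on Lats, at 0.71 ± 0.19 (SE, limma adjusted p = 0.249). It was 4.83 ± 1.47 FPKM in sham hearts and 8.56 ± 2.45 FPKM in cryoinjured hearts (SD, n = 6). The polarity gene llgl1 was at 0.55, the 14-3-3 genes ywhaz and ywhaqb at 0.40 and 0.36, and vgll2b, a Tead partner, at 0.49. The vgll2b average combined -0.13 in wild type with 1.11 in mutants, and the difference between these responses was 1.24 ± 0.60 (SE, limma unadjusted p = 0.0596). Its levels were low and uneven, at 0.43, 0.40 and 0.565 FPKM in mutant sham hearts and 3.53, 0.59 and 3.35 FPKM in mutant cryoinjured hearts. The value of mutant cryoinjury 2 was the 0.59 FPKM. Wild-type libraries ran from 0.30 to 2.29 FPKM. The mean of vgll2b in sham hearts, 0.886 FPKM, was below the filter of 1 FPKM. It thus entered the tests only through its cryoinjured libraries, and its injury values are given as a description. None of these genes passed the adjusted threshold.

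**Figure D4:**
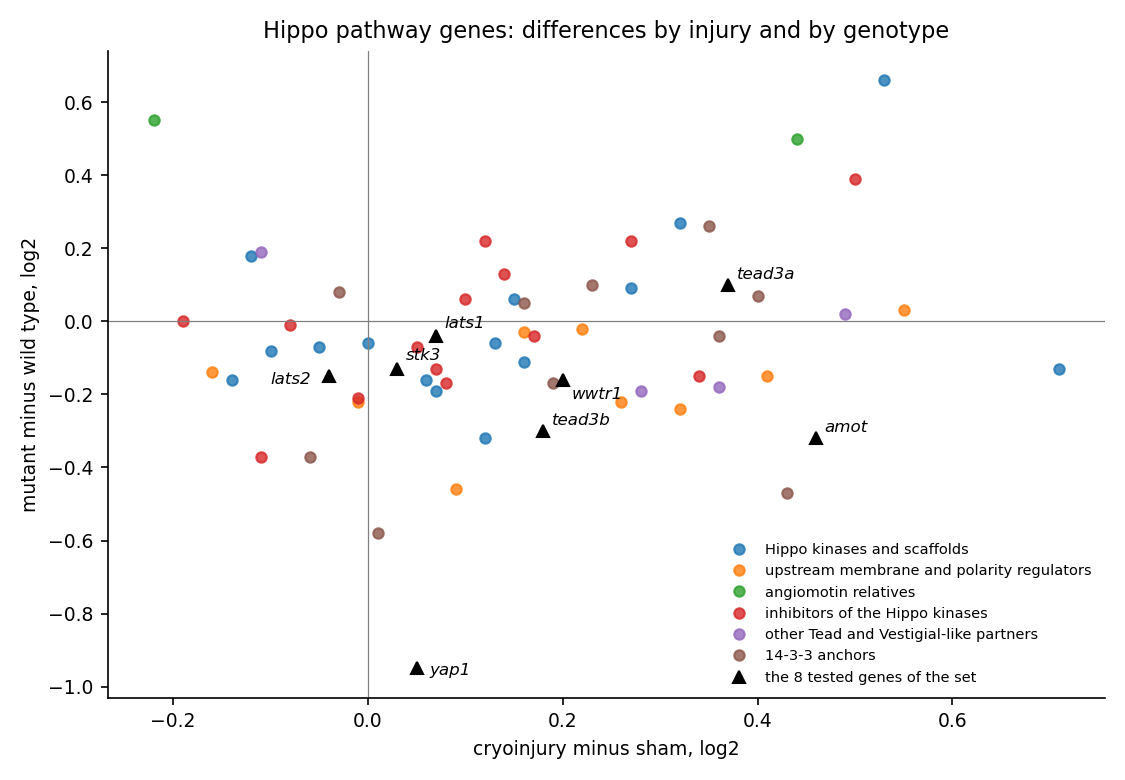
Log2 difference by injury (cryoinjury minus sham, horizontal) against that by genotype (mutant minus wild type, vertical) for the 54 other tested pathway genes, coloured by list, and the 8 tested members as black triangles, 1 point per gene. The topmost point is taok3a (0.66 by genotype), the rightmost is map4k2 (0.71 by injury), and the lowest is yap1 (-0.95 by genotype).

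Genes known in mammals as targets of Yap and Taz were also followed. Whether their levels report Yap and Taz activity in these hearts was not tested. The target list shares amotl2a, amotl2b and ajuba with the pathway lists above, so these genes count in both. Of 36 listed, 34 were found and 28 tested, and none passed in any comparison. By genotype, 20 of 28 were higher in mutants and 8 lower, with a median of 0.16 beside -0.03 over all genes. By injury, 23 of 28 were higher, with a median of 0.43 beside 0.10 over all genes, and 11 of the 28 had an unadjusted p under 0.05, beside 9.70% of all genes. By genotype 3 of the 28 did, beside 9.66% of all genes. Within sham hearts 22 were higher and 6 lower in mutants, with a median of 0.29 beside 0.07 over all genes. Within cryoinjured hearts 15 were higher and 13 lower, with a median of 0.05 beside -0.11 over all genes. The injury median was 0.64 in wild type and 0.20 in mutants, beside 0.19 and 0.01 over all genes. For the difference of the injury responses the target median was -0.24 beside -0.17 over all genes.

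The kinase gene nuak2 was low in p in both comparisons. It had 1.06, 0.93 and 0.78 FPKM in wild-type sham hearts, 2.30, 1.91 and 2.27 FPKM in wild-type cryoinjured hearts, 2.78, 2.08 and 1.78 FPKM in mutant sham hearts and 4.55, 3.41 and 2.98 FPKM in mutant cryoinjured hearts. Mutant libraries were above wild-type libraries in each injury state without overlap, as for 7.01% of all genes in sham hearts and 3.06% in cryoinjured hearts. The log2 difference was 0.64 ± 0.14 (SE) by genotype, with a limma adjusted p of 0.226, and 0.62 ± 0.14 (SE) by injury, with a limma adjusted p of 0.166.

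Other targets of lowest p by genotype were f3b, a tissue factor gene, at 0.67, gadd45ab at 0.88 and tgfb2, a transforming growth factor ligand, at -0.69. Mutant sham 1 and mutant cryoinjury 2, which have high ribosomal shares, had 8.72 and 8.88 FPKM of tgfb2. The other mutant libraries lay within the wild-type range of 16.0 to 40.5 FPKM. The gadd45ab average combined 1.69 in sham hearts with 0.08 in cryoinjured hearts, and the difference of the injury responses was -1.61 ± 0.51 (SE, limma unadjusted p = 0.00856, adjusted p = 1). By injury the other targets of lowest p were ankrd1a, thbs1 and myof, a membrane repair gene. The cardiac ankyrin repeat gene ankrd1a was at 2.05 and the matrix thrombospondin thbs1 at 1.36. The level of myof was 2.07 ± 1.89 FPKM in sham hearts and 4.98 ± 1.95 FPKM in cryoinjured hearts (SD, n = 6). The ankrd1a difference had a limma adjusted p of 0.149 and rested on uneven libraries. It was 3.06 to 6.13 FPKM in wild-type cryoinjured hearts, and in mutant cryoinjured hearts 16.6, 0.92 and 8.49 FPKM, the low value being that of mutant cryoinjury 2, which has a high ribosomal share. In sham hearts of either genotype ankrd1a was at most 0.94 FPKM, below the filter of 1 FPKM, so it was tested only through its cryoinjured libraries. The macrophage markers ran from 36.0 to 75.3 FPKM in wild-type sham hearts, from 146 to 213 in wild-type cryoinjured hearts, from 42.3 to 537 in mutant sham hearts and from 177 to 475 in mutant cryoinjured hearts. Their part in the target differences was not tested.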

How the data were processed

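Whole-heart RNA was isolated with Trizol and checked on a BioAnalyzer, and low-input poly-A libraries were sequenced on a BGISEQ-500, per the labels' protocols. HISAT and Bowtie2 were used with build GRCz11, per the submitters' processing notes; no source used here gives their versions or the program that computed expression. The authors deposited 1 FPKM value per gene and library. Of the value columns, 13 were used and 1, which matched no sample, was not. Mutant sham 3 had 2 columns, which differed by a median of 0.017 on the log2 scale against 0.212 to 0.673 between replicates, and they were averaged as 1 sample. Where a few transcripts take a larger share of a library, the FPKM of the rest falls.

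Values were tested as log2(FPKM + 1) with limma 3.58.1 in R 4.3.3, with a mean per group over 12 samples, an intensity trend, a filter at a mean of 1 FPKM and Benjamini-Hochberg adjustment at 0.05 over 13969 genes. For yap1 and wwtr1 an exact permutation of genotype within injury was also made. With 3 libraries against 3, single contrasts rest on limma. Contrasts of the same genotype or state share libraries. Low FPKM values were assumed to be whole multiples of a step per gene, and relative depths were assigned so as to maximise agreement over pairs of columns. Of 78 pairs, 63 gave a relative depth within 0.03 on the log2 scale of the depths assigned. As the same pairs set the depths, this is no independent check of them. On simulated data for wild-type cryoinjury against sham, 31.6% of genes changed 2-fold and 79.6% of those changed 4-fold were called over 13969 genes, with 0.0566% of unchanged genes.

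The members and lists were chosen with earlier results of these data known. List genes were matched first by gene ID through a RefSeq table of GRCz12tu, from which no coordinates were taken, and otherwise by deposited symbol or by RefSeq synonym. Named besides the members were, in each contrast averaged over the other factor, the 6 other pathway genes and 4 targets of lowest p, and for each member the 3 genes of highest Pearson r. Alternatives were a smaller pseudocount (0.1), a filter at 5 FPKM or none, median-of-ratios and TPM rescaling, array weights, a replicate block, fits of only the groups compared, and each library left out. Python 3.11.15, pandas 2.3.3 and matplotlib 3.10.9 were used for tables and plots.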

Additional observations from a re-analysis of the deposited data

How the results depend on the processing

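The yap1 difference kept its direction and an exact permutation p under 0.05 with the smaller pseudocount, both rescalings and the libraries left out, between -1.05 and -0.87 with each library left out in turn and between -1.03 and -0.84 otherwise, and wwtr1 remained uncalled, between -0.23 and -0.07. By limma, array weights called 1 member, yap1, by genotype over both injuries (-0.91, adjusted p = 0.0463), and no alternative called another member in any comparison. Of 1180 member values under alternatives, 91 turned sign, all of them uncalled. Counts over all genes moved more: by injury over both genotypes from 9 to 290 with array weights, 19 with median-of-ratios rescaling, 3 with a filter at 5 FPKM, 3 with a replicate block and between 1 and 428 with each library left out, the highest without mutant sham 2; by genotype over both injuries from 1 to 15 with array weights, 3 without a filter, 0 with either rescaling or the block, and between 0 and 5 with a library left out, the highest without mutant cryoinjury 3; by injury in wild type from 0 to 409 with array weights, 8 with only its own groups and 18 without mutant sham 1; and to at most 3 in the other 4. In 2 settings chosen after seeing the data, leaving out mutant sham 1 and 2 and mutant cryoinjury 2 gave 73 genes by injury in wild type and 31 over both genotypes, and leaving out wild-type sham 3 and mutant sham 1 gave 2 over both genotypes. The mutant sham arm of the first keeps 1 library, assumed to vary like the other groups. Deviations of same-numbered libraries from their group means correlated above 0.1 in 3 of 18 pairs, with r from -0.205 to 0.326. Pairs with different numbers were not compared, so this cannot decide whether the numbers pair libraries. The labels state no pairing. With the replicate block, the yap1 difference was -0.95 (exact sign flip of paired differences, p = 0.0312), that of wwtr1 was -0.16, and 0 members were called. FPKM without counts limits what can be said of tead1a and tead1b. The causes of these changes were not tested.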
